A study of Arabidopsis thaliana with 8 samples.

Results

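Across the 5 deposited comparison tables, 7948 genes are listed in at least 1. Of these, 9 encode the minor antenna proteins LHCB4 to LHCB6 of photosystem II and the antenna proteins LHCA1 to LHCA4 of photosystem I. They are *LHCB4.1* (AT5G01530), *LHCB4.2* (AT3G08940), *LHCB4.3* (AT2G40100), *LHCB5* (AT4G10340), *LHCB6* (AT1G15820), *LHCA1* (AT3G54890), *LHCA2* (AT3G61470), *LHCA3* (AT1G61520) and *LHCA4* (AT3G47470). They were taken by identifier, and all 9 were found. The rare relatives *LHCA5*, *LHCA6* and *LHCB7* are also listed but are not among the 9. Whole seedlings of *Arabidopsis thaliana* were collected at day 7 in continuous white light on Gamborg B5 medium, with 2 poly-A RNA libraries for each of 4 genotypes. These were Col-0 (the wild type), *nf-yc triple*, the *hy5* single mutant and *nf-yc triple hy5*. All mutants are in the Col-0 ecotype. The *nf-yc triple* line carries the insertion alleles *nf-yc3-1*, *nf-yc4-1* and *nf-yc9-1* in genes for 3 subunits of the CCAAT-binding NF-Y complex. In the tables this line kept 5.92% of the Col-0 level of *NF-YC3*, 50.9% of *NF-YC4* and 20.5% of *NF-YC9*, and the quadruple mutant 7.52%, 44.0% and 28.3%. *NF-YC* loss below therefore means these lines and not the absence of the transcripts. The *hy5* line carries an insertion in *HY5*, which encodes a bZIP factor that promotes development in the light. The line *nf-yc triple hy5*, called the quadruple mutant, carries all 4 insertions. *HY5* is listed in no comparison, so its remaining transcript is not known from these data. The paper reports that its level was altered only in its own mutant backgrounds. Without *HY5* below therefore means the lines with this insertion. The tables compare each mutant with Col-0 and the quadruple mutant with each parental line, and hold only genes at an adjusted p under 0.05. No value per library was analysed, so depth is unknown and fold changes and p-values are those in the authors' deposited tables.

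Light-harvesting proteins bind chlorophyll a and b and pass the absorbed energy to a photosystem. Around photosystem II, trimers of the major antenna proteins LHCB1, LHCB2 and LHCB3 dock through 3 monomeric minor proteins, which are CP29 (LHCB4), CP26 (LHCB5) and CP24 (LHCB6). Around photosystem I, LHCA1 with LHCA4 and LHCA2 with LHCA3 form heterodimers that line a side of the core as a belt. All are encoded in the nucleus and imported into the chloroplast, and their transcripts accumulate in green tissue in the light.

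CP29 is encoded by 3 paralogs, of which *LHCB4.1* and *LHCB4.2* shared 81.9% of aligned coding bases, while *LHCB4.3* shared 70.2% with *LHCB4.1* and 71.6% with *LHCB4.2*. The 4 *LHCA* genes shared 53.1% to 59.4%. The 3 CP29 genes have 2 exons each and lie on different chromosomes (TAIR10.1), *LHCB4.1* at chr5:208866-210548, *LHCB4.2* at chr3:2717557-2718923 and *LHCB4.3* at chr2:16745628-16747424. *LHCA4*, with 4 exons, lies on the minus strand at chr3:17493343-17495033. No stretch of 50 bases was common to any pair of the 9 mRNAs. Stretches of that length were shared with another gene for 8.76% of positions in *LHCA2* (with AT5G28450), 4.68% in *LHCB6* (with AT1G15810) and 0.32% in *LHCA4* (with AT3G47460), none of which was listed in any table. The 250 bases before the annotated gene start are shown for the members with the largest and the smallest change in the quadruple mutant against Col-0, *LHCB4.2* and *LHCB4.3*, and, chosen after their values were seen, for the remaining paralog *LHCB4.1* and for *LHCA4*. Sequences and coordinates are from RefSeq (TAIR10.1), read 5′ to 3′ on the strand of the gene. Capitals mark CACGTG (a G-box, which holds the ACGT core bound by bZIP factors), CCAAT or its reverse complement ATTGG (the box bound by NF-Y), and GATAAG or its reverse complement CTTATC (an I-box, often found before light-responsive genes).
*LHCB4.1*, chr5:208616-208865, plus strand: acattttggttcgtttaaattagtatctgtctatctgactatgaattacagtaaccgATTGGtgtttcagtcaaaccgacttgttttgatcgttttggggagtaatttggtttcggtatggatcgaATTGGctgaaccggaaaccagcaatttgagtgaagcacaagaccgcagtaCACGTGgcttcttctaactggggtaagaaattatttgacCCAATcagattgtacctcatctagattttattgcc
*LHCB4.2*, chr3:2717307-2717556, plus strand: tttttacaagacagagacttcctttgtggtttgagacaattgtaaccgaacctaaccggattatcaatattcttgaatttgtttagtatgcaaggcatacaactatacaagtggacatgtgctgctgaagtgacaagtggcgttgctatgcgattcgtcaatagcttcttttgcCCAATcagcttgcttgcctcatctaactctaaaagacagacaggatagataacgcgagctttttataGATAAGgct
*LHCB4.3*, chr2:16745378-16745627, plus strand: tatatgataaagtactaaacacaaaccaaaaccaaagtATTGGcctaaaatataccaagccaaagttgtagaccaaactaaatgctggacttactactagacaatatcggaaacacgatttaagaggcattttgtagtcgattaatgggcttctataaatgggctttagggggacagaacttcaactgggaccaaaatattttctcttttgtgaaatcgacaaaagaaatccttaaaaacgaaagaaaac
*LHCA4*, chr3:17495034-17495283, minus strand: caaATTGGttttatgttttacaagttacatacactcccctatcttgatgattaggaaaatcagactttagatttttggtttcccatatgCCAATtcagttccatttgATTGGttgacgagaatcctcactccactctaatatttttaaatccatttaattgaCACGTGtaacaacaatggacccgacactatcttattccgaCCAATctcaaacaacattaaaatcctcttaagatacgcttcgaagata

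CCAAT was matched on either strand in 8 of the 9 upstream windows, the exception being *LHCB6*, against 46.04% of 27443 windows of the same length. It occurred 4 times upstream of *LHCA4* and 3 times upstream of *LHCB4.1*, and in the window of *LHCB4.2* its only match began 76 bases before the gene start. CACGTG was matched before 3 members, *LHCB4.1*, *LHCB6* and *LHCA4*, against 6.49% of all windows. ACGT was found in the same 3 windows, each time inside the G-box, against 44.08% of all windows. GATAAG was matched before *LHCB4.2*, *LHCB6* and *LHCA1*, against 12.29% of all windows. These are matches of letters and not binding data. The pair with the largest and smallest change, *LHCB4.2* and *LHCB4.3*, both had a CCAAT match and neither had a G-box in this window. They differed in GATAAG, which began 9 bases before the start of *LHCB4.2* and was absent before *LHCB4.3*. In the same comparison *LHCB6* and *LHCA1*, with GATAAG, had log2 fold changes of -1.26 and -1.05. *LHCA4*, without it, had -1.45, and the other members without it lay between -1.05 and -0.81. *LHCB6*, the member without CCAAT, had -0.48 in *nf-yc triple* against Col-0, where the listed members ranged from -0.82 to -0.25. Any part of these motifs in the changes was not tested.

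Levels in CPM, the reads of a gene scaled to a common library size, were worked out for each genotype from the fold change and the mean of the pair in the tables. A genotype's level for a member differed between tables by at most 4.28%. Per kb of mRNA, *LHCA1* (3610 CPM per kb) and *LHCA4* (3372) had the highest levels in Col-0, followed by *LHCA2* (2836) and *LHCB5* (2824), which differed by less than the gap between tables. *LHCB4.1* (2306), *LHCA3* (2121), *LHCB6* (1894) and *LHCB4.2* (1509) came next in that order. *LHCB4.3*, the divergent CP29 paralog, stood far apart at 30.1 CPM per kb. In the quadruple mutant the order changed for *LHCA4*, which at 1274 CPM per kb was level with *LHCB4.1* at 1273 and below *LHCA1* (1797), *LHCA2* (1509) and *LHCB5* (1409). The 9 members together made up 26873 CPM in Col-0. By the fold changes this corresponded to 82.2% of that sum in *nf-yc triple*, 64.6% in *hy5* and 46.0% in the quadruple mutant. The 5 minor *LHCB* genes (78.1%, 63.0% and 45.3%) and the 4 *LHCA* genes (85.1%, 65.7% and 46.6%) followed the same order of genotypes. In whole seedlings, fewer green cells and less RNA per green cell cannot be told apart.

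**Figure D1:**
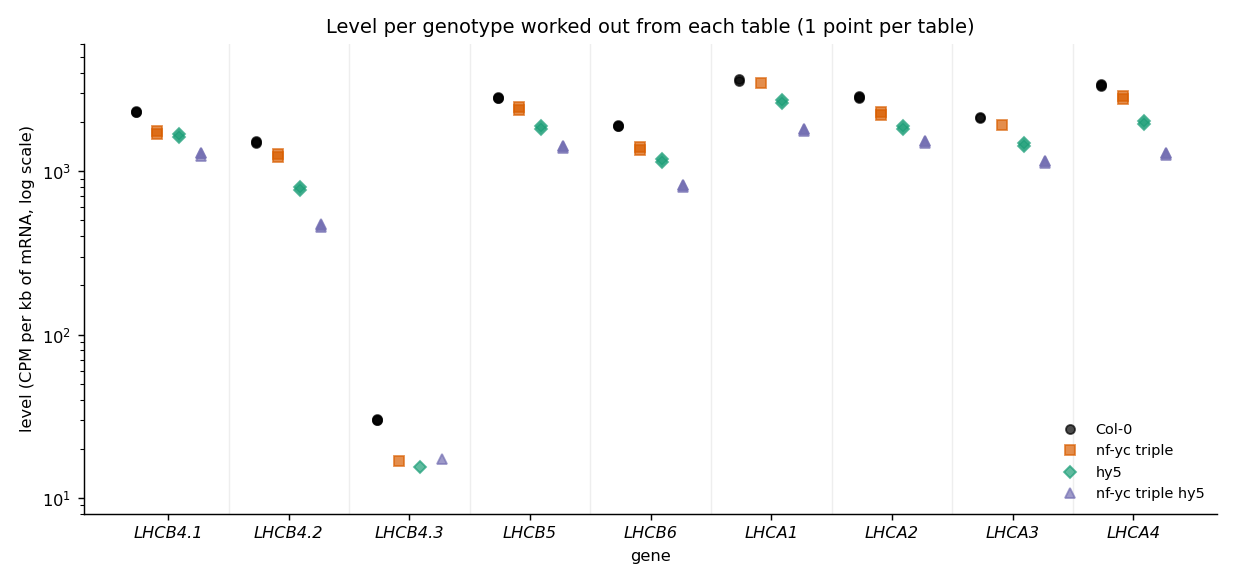
Level of each gene in CPM per kb of mRNA (log scale) in the 4 genotypes, with 1 point for each table that gives the genotype. Points of a genotype lie within 4.28% of each other, Col-0 has the highest level of every gene, and *LHCB4.3* sits at 15.5 to 30.5 CPM per kb, far below the others.

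Loss of the 3 *NF-YC* genes lowered 7 of the 9 members by small amounts. At an adjusted p under 0.05, 7.96% of all 19177 genes tested were listed as lower, and 2.59% were also at least 1.5-fold lower, as was 1 of the 9 members. That member was *LHCB4.3*, which fell from 39.4 CPM in Col-0 to 22.4 CPM in *nf-yc triple* (log2 fold change -0.82, adjusted p = 2.96e-13). *LHCB6*, the CP24 gene, fell from 2261 to 1617 CPM (-0.48, adjusted p = 4.44e-07), and *LHCB4.1* from 3191 to 2361 CPM (-0.43, adjusted p = 9.3e-08). Both thus kept over 70% of the Col-0 level. *LHCA2* (-0.34), *LHCB4.2* (-0.30), *LHCA4* (-0.28) and *LHCB5* (-0.25) fell by less, with adjusted p between 0.000226 and 0.00258. The median of the 7 was -0.34, beside -0.44 for all genes listed as lower. *LHCA1* and *LHCA3* were not listed. Subtraction of the other tables gives -0.11 for *LHCA1* and -0.20 for *LHCA3*, the 2 values nearest to 0 of the 9, and these carry no test. An approximate standard error, the log2 fold change over the normal deviate of its deposited p, was 0.07 to 0.10 for the 7 listed members. Apart from *LHCB4.3*, no 2 neighbours in the order differed by more than their combined error. The ends of the rest did, with *LHCB6* at -0.48 and *LHCB5* at -0.25.

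In *hy5*, all 9 members were lower than in Col-0, against 12% of the 19199 genes tested, and 6 were at least 1.5-fold lower, against 4.9% of genes. *LHCB4.2* fell from 1928 to 984 CPM (log2 fold change -0.97, adjusted p = 1.18e-33), to about the same share of Col-0 (51.0%) as *LHCB4.3* (51.7%, from 39.7 to 20.5 CPM, -0.95, adjusted p = 5.64e-14). *LHCA4*, whose protein carries some of the most red-shifted chlorophylls of photosystem I, fell from 4352 to 2534 CPM (-0.78, adjusted p = 7.52e-20). *LHCB6* (-0.74), *LHCA2* (-0.63) and the CP26 gene *LHCB5* (-0.63) also passed 1.5-fold. *LHCA3* (1.48-fold), *LHCB4.1* (1.42-fold) and *LHCA1* (1.37-fold) were lower at adjusted p between 2.07e-12 and 1.18e-07 without reaching it. The median over the 9 was -0.63, beside -0.51 over all genes listed as lower. Of the heterodimer partners, *LHCA4* kept 58.2% of its Col-0 level and *LHCA1* 73.3%, further apart than their combined error, whereas *LHCA2* (64.5%) and *LHCA3* (67.7%) lay within their errors of each other.

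All 9 members were at least 1.5-fold lower in the quadruple mutant than in Col-0, against 13.6% of the 19115 genes tested that were listed as lower and 7.03% that were at least 1.5-fold lower. *LHCB4.2* changed most, from 1958 to 584 CPM or 29.8% of Col-0 (3.35-fold lower, adjusted p = 4.69e-101), and by its p-value ranked 24 among all genes tested. *LHCA4* fell from 4420 to 1615 CPM (log2 fold change -1.45, adjusted p = 1.51e-55) and *LHCB6* from 2308 to 961 CPM (-1.26, adjusted p = 1.23e-51). Each of these 3 differed from the next in the order by more than the combined standard error, which describes the order and tests no grouping. The other 6 formed a continuous run in which no neighbours differed by more than that error, although its ends did. In it were *LHCB5* (-1.05) and *LHCA1* (-1.05), *LHCA2* (-0.96), *LHCA3* (-0.93), *LHCB4.1* (-0.91) and *LHCB4.3* (-0.81), with adjusted p of 6.15e-12 or less. *LHCB4.3*, first by fold change in *nf-yc triple* and next to first in *hy5*, was last here. The median of -1.05 stood beside -0.60 for all genes listed as lower and -0.91 for those at least 1.5-fold lower.

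**Figure D2:**
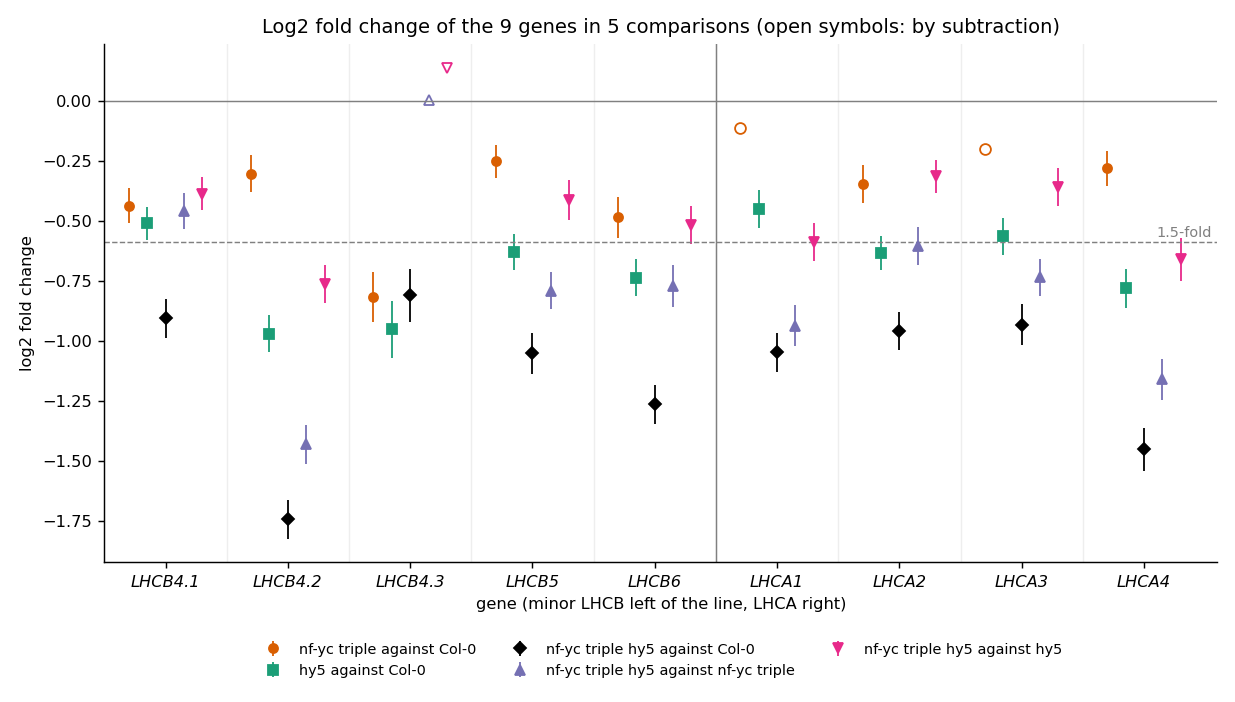
Log2 fold change of each gene in the 5 comparisons, with bars of 1 approximate standard error derived from the deposited p. Open symbols are values by subtraction for a gene that a table does not list, and the dashed line marks 1.5-fold. The black diamonds (the quadruple mutant against Col-0) are lowest for every gene except *LHCB4.3*, whose 3 values against Col-0 lie between -0.95 and -0.81.

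Both parental lines had higher levels than the quadruple mutant for 8 of the 9 members. Against *nf-yc triple*, 8 members were lower where 10.6% of the 19241 genes tested were, and 7 were at least 1.5-fold lower where 4.75% of genes were. *LHCB4.2* fell from 1622 to 601 CPM (log2 fold change -1.43, adjusted p = 8.69e-68), *LHCA4* from 3717 to 1662 CPM (-1.16, adjusted p = 2.03e-40) and *LHCA1* from 4095 to 2140 CPM (-0.94, adjusted p = 4.76e-26). *LHCB4.1* was at the other end (-0.46, 1.38-fold, adjusted p = 1.67e-08). *NF-YC9* itself was higher in the quadruple mutant than in *nf-yc triple* (0.48, adjusted p = 0.0101), and any part of this in the comparison was not tested. Against *hy5*, where 3.01% of the 19347 genes tested were listed as lower and 1.26% were at least 1.5-fold lower, 8 members were lower and 3 reached 1.5-fold. These were *LHCB4.2* (1026 to 605 CPM, -0.76, adjusted p = 1.04e-18), *LHCA4* (2641 to 1671 CPM, -0.66, adjusted p = 2.29e-10) and *LHCA1* (3233 to 2152 CPM, -0.59, adjusted p = 1.18e-10), the last only just past it at 1.502-fold. The remaining 5 fell by 0.31 to 0.52 on the log2 scale, and in the order of all 8 no neighbours differed by more than their combined error. Its ends did, with *LHCB4.2* at -0.76 (SE 0.08) and *LHCA2* at -0.31 (SE 0.07). *LHCB4.3* was listed in neither comparison, and subtraction puts the quadruple mutant at 100% of its level in *nf-yc triple* and 110% of that in *hy5*.

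The change on *NF-YC* loss was compared between the backgrounds with and without *HY5* by taking the log2 fold change in the *hy5* background (the quadruple mutant against *hy5*) minus that in the wild-type background (*nf-yc triple* against Col-0). These comparisons share no library. The differences are given with their approximate standard errors and were not tested, since no value per library was analysed. For *LHCB4.2* the log2 fold change on *NF-YC* loss was -0.30 with *HY5* and -0.76 without it, a difference of -0.46 ± 0.11 (SE). The difference was -0.38 ± 0.12 for *LHCA4*, again larger without *HY5*. *LHCA1* had a like difference of -0.47, in which 1 value is by subtraction and the error is at most 0.14. On the log2 scale these 3 members were thus lower in the quadruple mutant than the sum of the changes in its parental lines. They stood at 29.8% of Col-0 against a summed 41.4% for *LHCB4.2*, 36.5% against 48.0% for *LHCA4* and 48.4% against 67.8% for *LHCA1*. A sum of log2 fold changes multiplies the shares kept. Adding the losses in CPM would give other expected levels, which were not worked out, so the distance of a member from the sum depends on this scale. For *LHCB4.1* (0.05 ± 0.10), *LHCA2* (0.03 ± 0.10) and *LHCB6* (-0.03 ± 0.12) the difference was within its error. *LHCB5* (-0.16 ± 0.11) and *LHCA3* (-0.16, error at most 0.14) lay between. *LHCB4.3* went the other way, with a difference of 0.96 and an error of at most 0.19. Its summed change of -1.77 would leave 29.4% of Col-0, and the quadruple mutant had 57.1%, close to either parental line.

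**Figure D3:**
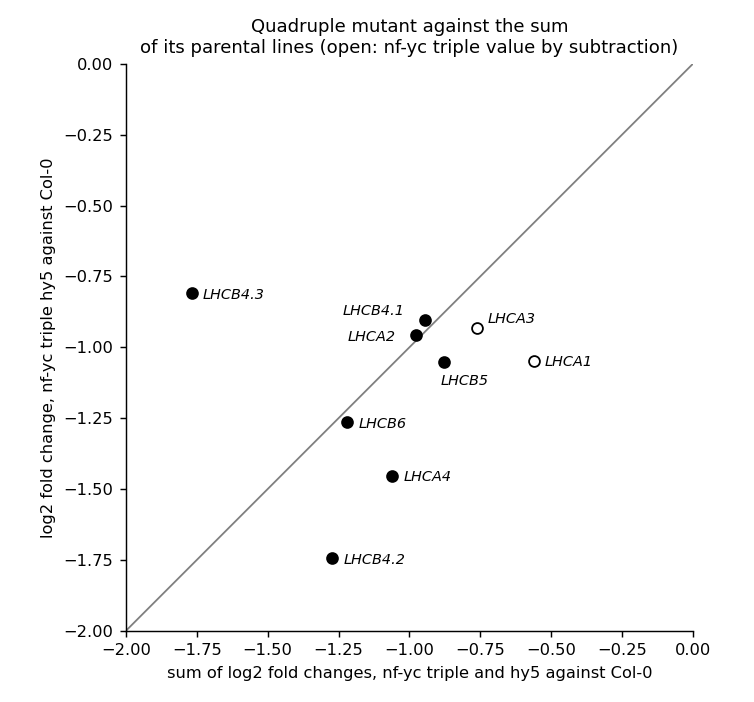
Log2 fold change of the quadruple mutant against Col-0 (y axis) plotted on the sum of the same values of *hy5* and of *nf-yc triple* (x axis), 1 point per gene, with the line of equality. Open circles take the *nf-yc triple* value by subtraction. *LHCB4.2*, *LHCA4* and *LHCA1* lie 0.39 to 0.49 below the line, *LHCB4.1*, *LHCA2* and *LHCB6* on it, and *LHCB4.3* 0.96 above it.

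The CP29 transcripts changed in composition as they fell. Per kb of mRNA, *LHCB4.2* stood at 0.654 of *LHCB4.1* in Col-0, 0.718 in *nf-yc triple*, 0.475 in *hy5* and 0.366 in the quadruple mutant, so that the share of *LHCB4.2* was lowest in the quadruple mutant. *LHCB4.1* exceeded *LHCB4.3* by 76.6-fold per kb in Col-0 and by 71.7-fold in the quadruple mutant, but by 99.7-fold in *nf-yc triple* and 104-fold in *hy5*. The tables give no spread between libraries for these ratios.

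Genes that work with the members moved in the same direction. The 9 major antenna genes were all at least 1.5-fold lower in the quadruple mutant than in Col-0 (median log2 fold change -1.66, range -2.51 to -0.98), against -1.05 for the 9 members, and no test between the lists was made. In *nf-yc triple*, 4 of the 9 major genes were listed and none reached 1.5-fold. Nuclear genes for the photosystem I core were listed as lower in 12 of 12 cases in the quadruple mutant, 9 of them at least 1.5-fold (median -0.74). Those for photosystem II subunits and associated proteins were lower in 14 of 14 cases, 10 of them at least 1.5-fold (median -0.71). The median of the 9 members thus lay between that of the major antenna and those of the photosystem I and photosystem II lists. Against *hy5* the medians of the listed genes were -0.79 for the major antenna (9 of 9 listed), -0.46 for minor *LHCB* (4 of 5), -0.47 for *LHCA* (4 of 4), -0.30 for photosystem I (9 of 12) and -0.30 for photosystem II (8 of 14).

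**Figure D4:**
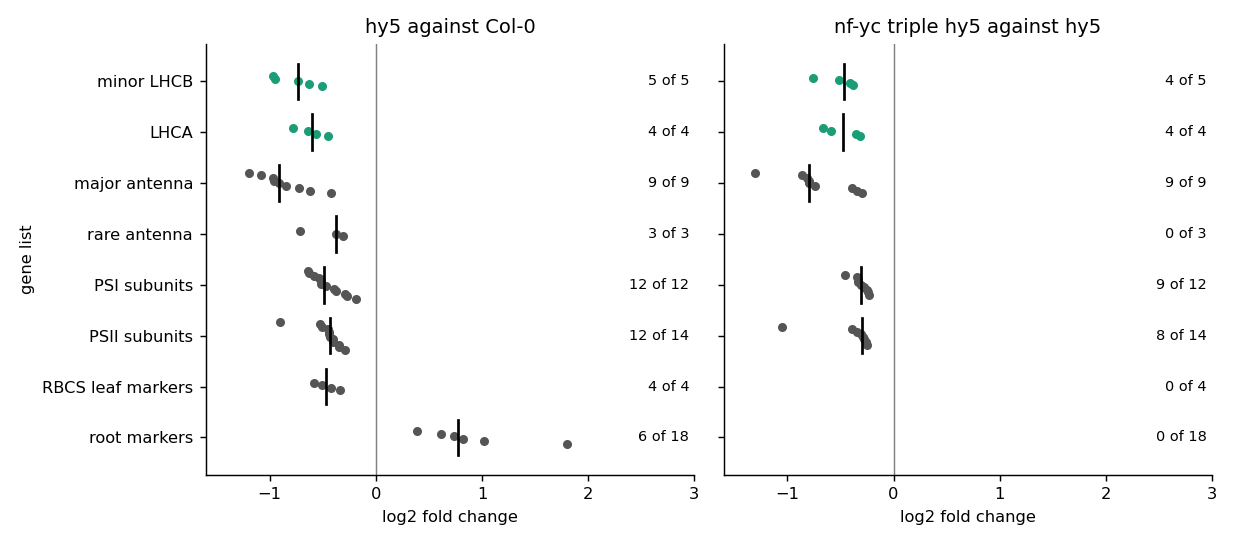
Log2 fold changes of the genes of 8 lists in *hy5* against Col-0 (left) and in the quadruple mutant against *hy5* (right), 1 point per listed gene, with the median as a bar and the number listed at the right edge. The minor *LHCB* and *LHCA* genes are green. In the right panel 8 of the 9 members are listed, and none of the 4 *RBCS* genes or 18 root markers, in a table of 4.76% of all genes tested.

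Markers of organ makeup also differed from Col-0 in each mutant. All 4 *RBCS* genes, which encode the small subunit of Rubisco and mark green tissue, were lower in each mutant, with a summed level of 22596 CPM against 30715 in *nf-yc triple*, 22436 against 30884 in *hy5* and 22263 against 31367 in the quadruple mutant (mutant against Col-0). Of 18 root markers, those listed were all higher, namely 8 in *nf-yc triple*, where 7.23% of all genes tested were listed as higher, 6 in *hy5* (13.5% of genes) and 6 in the quadruple mutant (13.5% of genes). Their summed levels cover different genes in each comparison, 483 against 232 CPM in *nf-yc triple*, 148 against 81.9 CPM in *hy5* and 137 against 83.1 CPM in the quadruple mutant. In *nf-yc triple*, 342 of the 483 CPM came from *PRP3* and *LRX1*, root hair genes not listed in the other mutants against Col-0. Over the 4 markers listed in all 3 comparisons, the sums were 105 against 65.1, 108 against 65.5 and 98.2 against 66.3 CPM. The others, among them the stem cell gene *WOX5* and the *PLT* genes, were not listed. The *RBCS* sums of the 3 mutants lay between 22263 and 22596 CPM. The members kept 82.2% of their summed Col-0 level in *nf-yc triple*, 64.6% in *hy5* and 46.0% in the quadruple mutant. The part of organ makeup in the lower levels of the members was not tested. In the quadruple mutant against *nf-yc triple*, 1 of the 4 *RBCS* genes was lower (4279 against 5133 CPM), and of 8 root markers listed 6 were lower and 2 higher (270 against 468 CPM in sum). In the quadruple mutant against *hy5*, none of the 4 *RBCS* genes and none of the 18 root markers was listed, in a table that lists 4.76% of all genes tested. The labels of the *NF-YC* mutants were matched by *NF-YC3*, *NF-YC4* and *NF-YC9*, which were lower in all 3 comparisons of a line with the insertions against a line without them. *HY5* was listed in no table, so its label was not checked by its transcript.

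Over the 4 comparisons that list at least 8 of the members, 410 genes were present in every table. The profile nearest to the median of the members by Euclidean distance of log2 fold changes was that of *SNG1*, a sinapate ester gene (distance 0.05), followed by the member *LHCB5* (0.05), the lipid transfer protein gene *LTP6* (0.06) and *PSAD-2*, which encodes the ferredoxin-docking subunit of photosystem I (0.06). AT4G33666 and *ABA1*, the zeaxanthin epoxidase gene, came next (both 0.14). *PSAD-2*, for example, had -0.63 in *hy5* and -1.10 in the quadruple mutant against Col-0, beside member medians of -0.63 and -1.05. Of the 8 members among the 410 genes, *LHCB4.2* was farthest from the median (1.06, rank 180) and *LHCA4* next (0.61). *LHCB4.3* is not among them, and with 2 of its values by subtraction its distance was 1.07. These distances are descriptive, since the 4 comparisons share libraries.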

How the data were processed

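Paired-end reads were demultiplexed by the authors with CASAVA 1.8.2, trimmed, and aligned with the Burrows-Wheeler Aligner to representative gene models of TAIR10. Pairs of genotypes were then compared by the authors with edgeR (version and settings not given in the sources used here). The deposited log2 values are a log2 fold change, the first-named genotype over the other, and the mean log2 CPM of both. The deposited p-values and Benjamini-Hochberg adjusted p-values come from the same comparisons by the authors, over all genes tested. A signed fold change column made by the authors, a score negative for lower genes, was not used. Use of the kit's molecular indices in counting is not given. Separate sowings of the libraries are not stated, so the spread behind the p-values may be technical. The comparisons with Col-0 share its libraries.

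The call was an adjusted p under 0.05 with a change of at least 1.5-fold. The total of genes tested was worked out from each gene's p, its rank and its adjusted p. Levels were solved from the log2 fold change and mean of a pair, assuming that the mean is that of the pair's 2 genotypes. Standard errors are |log2 fold change| over the normal deviate of the deposited p, approximate and descriptive only. The scripts (Python 3.11.15, pandas 2.3.3, numpy 2.4.6, scipy 1.17.1, Biopython 1.88) were tested on simulated data. Gene models, upstream windows and coding identity are from TAIR10.1 and may differ from the authors' gene models. Columns of no mapped sample number 0. The members and lists were chosen with earlier results of these data known. Named genes are the 9 members, the 4 mutated genes and the 5 nearest profiles. Up to 4 called genes per list were also named, by adjusted p in the quadruple mutant against Col-0. *LHCA5*, *LHCA6*, *WOX5*, *PRP3*, *LRX1*, the *PLT* genes and the antenna import genes were named outside these rules. Alternatives were other thresholds, values by subtraction, leaving out *LHCB4.3* and other tables for levels.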

Additional observations from a re-analysis of the deposited data

How the results depend on the processing

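With no fold threshold, 7 members were lower in *nf-yc triple* against Col-0 and 8 in the quadruple mutant against *hy5*, in place of 1 and 3. With a 2-fold threshold the counts were 0 in *nf-yc triple*, 0 in *hy5* and 5 in the quadruple mutant (all against Col-0), 2 in the quadruple mutant against *nf-yc triple* and 0 in it against *hy5*. An adjusted p under 0.01 left all 5 counts as they were. The share of all genes at the 2-fold threshold or at this adjusted p was not worked out. Those counts therefore have no background to be read against. The medians of the members moved by less than their spread when absent members were entered by subtraction (-0.30 in *nf-yc triple*) or *LHCB4.3* was left out. All 30 levels taken from another table were within the approximate standard error. So were the 6 differences between backgrounds that could be taken from the comparisons with Col-0 alone. The tables rest on the same libraries, so neither check could well have failed, and neither tests reliability. Differences for *LHCA1*, *LHCA3* and *LHCB4.3* have no second derivation. No paired analysis was possible because no value per library was analysed, and leaving out a replicate was not run for the same reason. A gene that a table does not list either missed the adjusted p or was not tested there.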

Other observations

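The 3 rare relatives of the antenna genes were lower in all comparisons with Col-0 that list them. *LHCA5* and *LHCA6*, which link photosystem I to the NDH complex, were lower in *nf-yc triple hy5* than in Col-0 (log2 fold changes -0.58 and -0.51) without reaching 1.5-fold, and *LHCB7* (AT1G76570) fell by 0.97 on the log2 scale. None of the 3 was listed in *nf-yc triple hy5* against *hy5*.

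Of 12 genes for antenna import, chlorophyll b and antenna regulation, 8 were lower in *nf-yc triple hy5* than in Col-0, 5 of them at least 1.5-fold. Of all genes tested, 13.6% were lower and 7.03% at least 1.5-fold lower. The import genes *CPSRP43* (-0.59), *CPFTSY* (-0.30), *LTD* (-0.30) and *ALB3* (-0.29) fell least of the 8 on the log2 scale. *CPSRP54* was listed in no comparison. *CAO* (AT1G44446), the chlorophyllide a oxygenase that makes chlorophyll b, had 35.6% of its Col-0 level (log2 fold change -1.49, adjusted p = 1.61e-57 in the authors' deposited edgeR table), close to the 36.5% of *LHCA4*. *GLK1* (AT2G20570) and *GLK2* (AT5G44190), transcription factors that activate antenna genes, had -1.03 and -0.84, and *STN7*, the kinase of state transitions, had -0.79. In *hy5* against Col-0, *CAO* had -0.96, *GLK1* -0.89 and *GLK2* -0.60, within the range of the 9 members. *GLK1* and *GLK2* were also lower in the quadruple mutant than in *nf-yc triple* (-0.88 and -0.76). Neither was listed in *nf-yc triple* against Col-0 or in the quadruple mutant against *hy5*, where 7 and 8 of the members were lower. Absence from a table does not show that a gene was unchanged. Any part of *GLK1* and *GLK2* in the levels of the members was not tested. In *nf-yc triple* none of the 12 reached 1.5-fold, and 5 were lower, where 7.96% of all genes tested were.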
